A study of Rattus norvegicus with 16 samples.

Results

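The clock output transcription factors carry the timing of the circadian clock to the genes of a tissue. The genes considered were *Dbp*, *Tef*, *Hlf*, *Nfil3*, *Ciart*, *Bhlhe40*, *Bhlhe41*, *Rora* and *Usp2*, taken as a list of symbols and not by their measured change. A probe belonged to a gene when the RefSeq transcript named for it on the array maps to that symbol, and the brightest probe of a gene in a tissue stood for it. By this rule 6 of the 9 genes were found, on 8 of the 45598 probes for rat transcripts, out of 16678 genes that could be named in all. *Dbp* and *Usp2* had 2 probes each, while *Tef*, *Nfil3*, *Ciart* and *Bhlhe40* had 1 each. *Hlf*, *Bhlhe41* and *Rora* had no probe by this rule.

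Each of 8 male Brown Norway rats gave RNA from lung and from adipose tissue, and each sample had its own array. The labels give an age of 7 weeks, which in the study's methods describes the rats that were then sensitized and challenged. The 5 HDM rats received 45 µg of house dust mite (HDM) under the skin with aluminum hydroxide as an adjuvant, weekly for 3 weeks. They were then challenged through the nose with 120 µg of HDM, 3 times a week for another 3 weeks. The 3 control rats received saline by the same routes, with the same adjuvant in the injections, so both groups carry the adjuvant. The time of day at which tissue was collected is not given in the sources used here, and it bears on any gene of the clock. Levels are given as log2 signal relative to the 75th percentile of the array, so that 0 is that percentile and 1 unit is a doubling.

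The circadian clock of a mammalian cell is a loop in which BMAL1 with CLOCK or NPAS2 activates genes through E-box elements and the PER and CRY proteins switch this activation off. DBP, TEF and HLF are the PAR bZIP factors, which activate genes through a shared site, the D-box. NFIL3, also called E4BP4, represses through the same site, and in many tissues its RNA peaks when that of *Dbp* is low. BHLHE40 and BHLHE41, also called DEC1 and DEC2, repress at E-boxes, and CIART, also called CHRONO, represses BMAL1-CLOCK. RORA activates *Bmal1* through ROR elements, and *Usp2* encodes a rhythmic deubiquitinase that acts on clock proteins. In lung the clock gates inflammatory responses, and in fat it is tied to lipid metabolism. NFIL3 is also needed for the development of several immune cells.

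The promoters of 4 of these genes are shown because they differ in their E-boxes, from 3 in the repressor gene *Ciart* to none in *Nfil3*. *Tef*, the one gene of the group called in lung, and *Bhlhe40* held 1 each. In this assembly *Dbp* lies on chromosome 1, *Ciart* on 2, *Bhlhe40* and *Bhlhe41* on 4, *Tef* on 7, *Rora* and *Usp2* on 8, *Hlf* on 10 and *Nfil3* on 17. Each sequence is the 250 bases before the transcript start in RefSeq's GRCr8 assembly, written 5′ to 3′ on the strand of the gene, with each E-box CACGTG in capitals. The windows are chr7:115206577-115206826 on the plus strand for *Tef*, chr2:186112247-186112496 on the minus strand for *Ciart*, chr4:143174200-143174449 on the plus strand for *Bhlhe40* and chr17:12432126-12432375 on the plus strand for *Nfil3*. The windows of *Tef* and *Ciart* lie inside the span annotated for the gene, upstream of an internal start, and the other windows lie just outside it.
Tef: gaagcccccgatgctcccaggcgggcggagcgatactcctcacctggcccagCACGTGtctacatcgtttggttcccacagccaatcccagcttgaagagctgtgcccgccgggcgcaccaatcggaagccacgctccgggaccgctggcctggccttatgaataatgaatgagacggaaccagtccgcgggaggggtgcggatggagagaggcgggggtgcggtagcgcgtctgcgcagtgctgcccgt
Ciart: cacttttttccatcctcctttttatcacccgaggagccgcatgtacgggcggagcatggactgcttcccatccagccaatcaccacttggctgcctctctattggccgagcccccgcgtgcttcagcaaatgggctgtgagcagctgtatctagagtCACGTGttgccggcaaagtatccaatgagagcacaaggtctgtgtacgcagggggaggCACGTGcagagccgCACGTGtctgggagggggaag
Bhlhe40: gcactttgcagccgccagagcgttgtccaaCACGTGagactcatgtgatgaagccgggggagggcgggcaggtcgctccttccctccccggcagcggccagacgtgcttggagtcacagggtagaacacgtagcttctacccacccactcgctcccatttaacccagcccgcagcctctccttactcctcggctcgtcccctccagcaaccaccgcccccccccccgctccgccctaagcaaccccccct
Nfil3: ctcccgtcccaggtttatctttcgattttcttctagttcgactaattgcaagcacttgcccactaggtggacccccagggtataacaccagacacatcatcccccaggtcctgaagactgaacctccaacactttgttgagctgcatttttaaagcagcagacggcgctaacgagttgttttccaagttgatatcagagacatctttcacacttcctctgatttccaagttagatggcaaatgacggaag

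The E-box of *Tef* began 198 bases before the start and that of *Bhlhe40* began 220 bases before it. The 3 E-boxes of *Ciart* began 93, 35 and 21 bases before the start. *Bhlhe41* held 1, beginning 48 bases before its start, and *Dbp*, *Nfil3*, *Rora* and *Usp2* held none. No window was matched for *Hlf*. Of all 33469 promoter windows of this length, 5.59% held CACGTG and 17 windows (0.0508%) held 3 or more. The D-box letters TTATGTAA (0.828% of all windows) and TTACGTAA (0.108%) and the ROR element TAGGTCA (2.26%) were searched on both strands as well, and none stood in the windows of the 8 matched genes. The searched motifs do not overlap one another in these windows. CACGTG reads the same on both strands and was counted once. A match describes the letters only.

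In the lungs, the PAR bZIP genes *Dbp* and *Tef* had lower mean levels in HDM rats. *Nfil3*, the gene for the repressor of the same sites, had the opposite sign. *Tef* was 2.13-fold lower (adjusted p = 0.0201, limma), the one gene of the group that passed the test. *Dbp* was 1.98-fold lower and *Nfil3* 1.53-fold higher, and neither passed the test. Of the 6 genes 1 was called, compared with 0.855% of all probes in either direction and 0.373% called lower. The median log2 fold change was −0.63 over the 6 genes and 0.00 over all probes. That of the 6 genes falls between the values of *Bhlhe40* (−0.38) and *Ciart* (−0.87). *Ciart* was well above background in 0 of the 5 HDM rats, which limits this median. In bulk tissue, fewer cells of a type and less RNA per cell cannot be told apart.

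**Figure D1:**
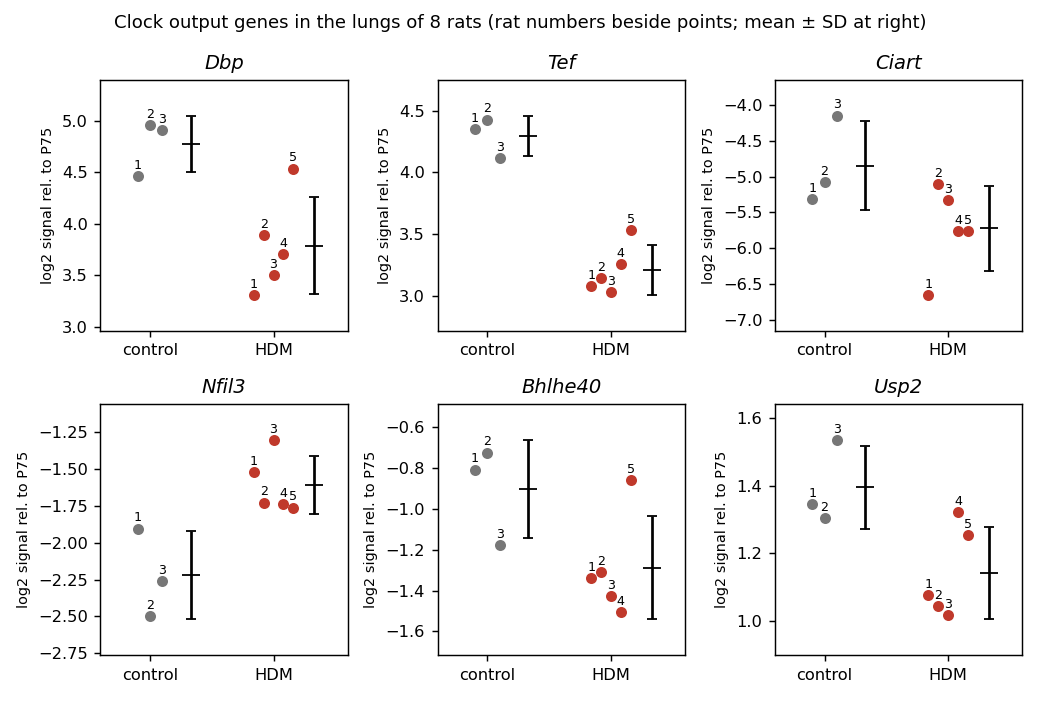
Level of 6 clock output genes in the lungs of the 8 rats, as log2 signal relative to the 75th percentile (P75) of the array (y axis), for 3 control and 5 HDM rats (x axis). Points are rats with their numbers, and bars are the mean ± SD. *Tef* and *Nfil3* separate the groups, and HDM rat 5 has the highest level of the HDM rats for *Dbp* (4.53), *Tef* (3.53) and *Bhlhe40* (−0.86).

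*Tef*, which encodes thyrotroph embryonic factor, had lung levels of 3.08, 3.14, 3.03, 3.26 and 3.53 in HDM rats 1 to 5. Control rats 1 to 3 had 4.35, 4.43 and 4.11. All 5 HDM rats lay below all 3 control rats, and the gap between the groups was wider than the spread inside either. The means were 3.21 ± 0.20 (SD, n = 5) and 4.30 ± 0.16 (SD, n = 3), a difference of −1.09 (SE 0.15, 95% confidence interval −1.43 to −0.75). The direction held with each rat left out, with differences between −1.18 and −1.03. The call was lost without HDM rat 1 (adjusted p = 0.0663, limma), HDM rat 2 (0.0675), control rat 1 (0.101), control rat 2 (0.115) or control rat 3 (0.0514).

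*Dbp* encodes the D-box binding protein. Its brightest lung probe read 3.31, 3.89, 3.50, 3.70 and 4.53 in HDM rats 1 to 5, and 4.46, 4.96 and 4.90 in control rats 1 to 3. HDM rat 5 alone reached the range of the control rats, just above control rat 1. The difference was −0.99 (SE 0.28, 95% confidence interval −1.63 to −0.35, adjusted p = 0.212, limma). The other *Dbp* probe gave −1.20 (SE 0.29, adjusted p = 0.135, limma), with HDM rats at 3.17 to 4.45 and control rats at 4.57 to 5.07. On that probe the groups did not overlap, and HDM rat 5 was again the highest of its group.

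*Hlf* encodes hepatic leukemia factor, the third PAR bZIP factor. Its 2 probes carry no RefSeq transcript of the gene on the array and were named through the study's own list of lung probes that differed, so their lung values were chosen by the readout and are given without a test. The brighter probe had a median of −0.12 in HDM rats (−0.39 to 0.26) and 0.59 in control rats (0.50 to 0.77). The dimmer probe had a median of −3.20 in HDM rats (−3.30 to −2.96) and lay between −2.69 and −2.26 in control rats. On both probes every HDM rat lay below every control rat, by 0.70 and 0.65 log2 units on average.

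*Nfil3* had lung levels of −1.52, −1.73, −1.30, −1.74 and −1.76 in HDM rats 1 to 5. Control rats 1 to 3 had −1.90, −2.50 and −2.26. All 5 HDM rats were above all 3 control rats, with a small gap between HDM rat 5 and control rat 1. The difference was 0.61 (SE 0.17, 95% confidence interval 0.21 to 1.01, adjusted p = 0.212, limma). *Nfil3* and *Tef* were the 2 of 6 genes whose groups did not overlap in lung, compared with 9.61% of the probes measured on all 8 arrays.

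Among the repressors that act at E-boxes, *Bhlhe40* differed by −0.38 in lung (SE 0.18, 95% confidence interval −0.80 to 0.03, adjusted p = 0.539, limma). HDM rats 1 to 4 lay between −1.50 and −1.31, whereas HDM rat 5 had −0.86 and the control rats had −0.81, −0.73 and −1.18. HDM rat 5 thus lay among the control rats. *Bhlhe41* was measured by 1 probe named in the same way as those of *Hlf*, and its lung values are likewise a description. They were −4.40 to −3.77 in HDM rats (median −4.33) and −3.40 to −2.92 in control rats, a difference of −1.05 with no overlap.

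*Ciart* was dim in lung, well above background in 0 of 5 HDM rats and 2 of 3 control rats. Its signal was −6.64, −5.10, −5.33, −5.76 and −5.76 in HDM rats 1 to 5 and −5.31, −5.08 and −4.15 in control rats 1 to 3. The ranges overlapped. Because the HDM rats were not well above background, no fold is given. The difference in signal was −0.87 (SE 0.39, 95% confidence interval −1.77 to 0.03, adjusted p = 0.514, limma). It was −0.52 without control rat 3, the highest of its group, and −0.10 after normexp background correction with quantile normalization.

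On its brightest probe, *Usp2* differed little in lung. Its brightest probe read 1.02 to 1.32 in HDM rats and 1.30 to 1.54 in control rats, a difference of −0.25 (SE 0.12, 95% confidence interval −0.53 to 0.02, adjusted p = 0.547, limma). The dimmer probe gave −0.49 (SE 0.21, adjusted p = 0.474, limma), and HDM rat 5 was the highest HDM rat on it at −1.50. The interval of the brightest probe leaves room for no more than a 1.5-fold decrease. That of the dimmer probe was wider, from −0.96 to −0.01, so this bound holds for the brightest probe alone.

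The position of the arrays on the slide moved with these values. The arrays of HDM rats 1 to 4 filled row 1 of the lung slide, and that of HDM rat 5 shared row 2 with the 3 control rats. Against the control rats of its own row, HDM rat 5 differed by −0.77 for *Tef*, −0.24 for *Dbp* and 0.04 for *Bhlhe40*, and by 0.46 for *Nfil3*. With the row as a block, the difference rests on that 1 rat, and the adjusted p was 0.414 for *Tef*, 0.908 for *Dbp* and 0.852 for *Nfil3* (limma). The part of the slide row in the differences was not tested. The row 2 value was at −0.91 for *Ciart*, near that of all rats, and at −0.14 for *Usp2*.

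In adipose tissue none of the 6 genes passed the test, as was true of all probes (0% called, limma), and the methods' t-test called 0 as well. At an unadjusted p below 0.05, limma found 1 of the 6 genes, *Ciart*, and 4515 of all probes (9.90%). The smallest adjusted p of any probe was 0.0853. The median log2 fold change was −0.25 over the 6 genes and −0.15 over all adipose probes, so the values below lie on a scale that is shifted downward for the tissue as a whole. With arrays scaled to their median, all probes had a median of 0.14.

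**Figure D2:**
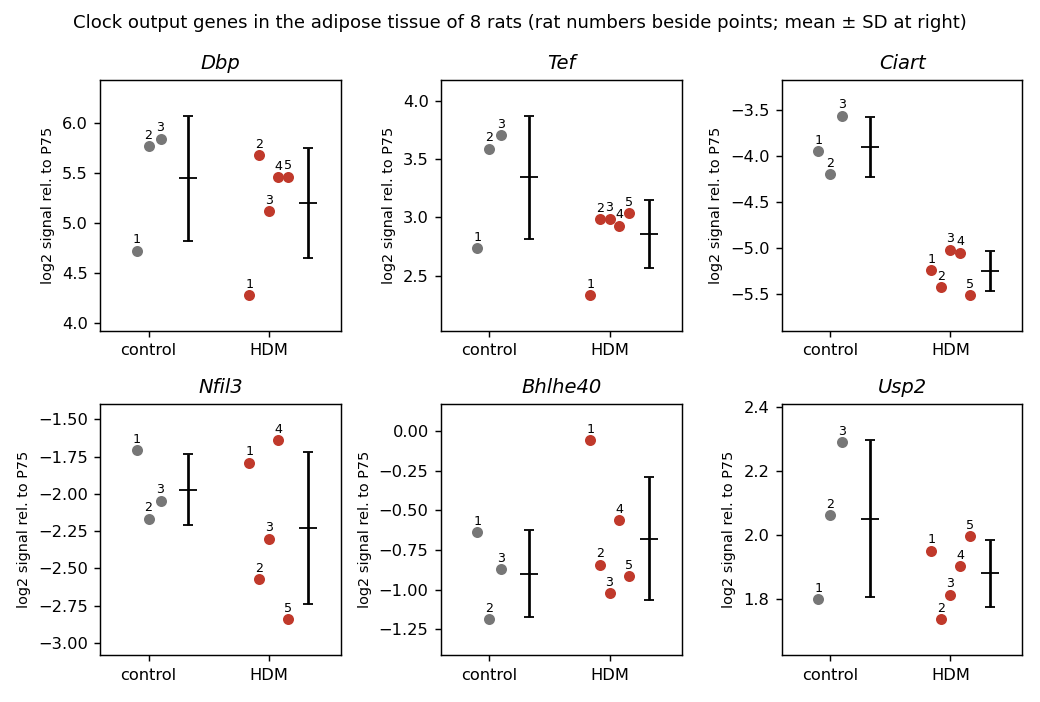
Level of 6 clock output genes in the adipose tissue of the same 8 rats, as log2 signal relative to the 75th percentile (P75) of the array (y axis), for 3 control and 5 HDM rats (x axis). Points are rats with their numbers, and bars are the mean ± SD. *Ciart* separates the groups, and HDM rat 1 (2.34) and control rat 1 (2.74) have the lowest *Tef* of all.

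*Ciart* was the gene of the group with the largest measured difference in adipose tissue. Its signal was −5.24, −5.43, −5.02, −5.05 and −5.51 in HDM rats 1 to 5 and −3.95, −4.20 and −3.56 in control rats 1 to 3. All HDM rats lay below all control rats, as held for 1 of the 6 genes and for 6.26% of all adipose probes. The probe was well above background in 0 of 5 HDM rats and 1 of 3 control rats, so both groups lay mostly near background and no fold is given. The difference in signal was −1.35 (SE 0.21, adjusted p = 0.211, limma). It was −1.05 with arrays scaled to their median, −0.79 with quantile normalization and −0.07 after normexp background correction with quantile normalization.

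The adipose samples of HDM rat 1 and control rat 1 stood apart. The summed level of a list is the log2 of its genes' added linear signals, so the brightest genes weigh most. For 8 epididymis and testis genes it was 11.01 and 11.55 in these 2 samples, and between −1.05 and 5.05 in the other 6 rats. The same 2 samples had the lowest *Dbp* and *Tef*. *Dbp* was 4.28, 5.67, 5.12, 5.46 and 5.46 in HDM rats 1 to 5 and 4.72, 5.77 and 5.84 in control rats 1 to 3.

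*Tef* was 2.34, 2.98, 2.99, 2.93 and 3.03 in the HDM rats and 2.74, 3.59 and 3.71 in the control rats. Aside from these samples, the other 4 HDM rats lay below the other 2 control rats for both genes. Over all rats the difference was −0.25 for *Dbp* (SE 0.39, adjusted p = 0.830, limma) and −0.49 for *Tef* (SE 0.28, adjusted p = 0.620, limma). Without both samples it was −0.38 for *Dbp* (adjusted p = 0.807, limma) and −0.66 for *Tef* (adjusted p = 0.472, limma). For the other genes the adipose difference without them was −1.37 for *Ciart*, −0.23 for *Nfil3*, 0.19 for *Bhlhe40* and −0.32 for *Usp2*. Without the same 2 rats *Tef* in lung was at −1.03 and was no longer called (adjusted p = 0.272, limma).

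For the other genes of the group, the HDM and control rats overlapped in adipose tissue. *Nfil3* differed by −0.26 (SE 0.31, adjusted p = 0.820, limma), with HDM rats at −2.84 to −1.64 and control rats at −2.17 to −1.71. *Bhlhe40* differed by 0.22 (SE 0.26, adjusted p = 0.820, limma), with HDM rats at −1.02 to −0.06 and control rats at −1.18 to −0.64. *Usp2* differed by −0.17 (SE 0.17, adjusted p = 0.814, limma) on its brightest probe and by −1.06 (SE 0.48, adjusted p = 0.527, limma) on the dimmer one, where the ranges overlapped. Scaling to the median turned the sign for *Dbp* (0.05), *Nfil3* (0.04) and *Usp2* (0.12). The adipose values of the genes named through the lung list were open to a test, and *Bhlhe41* differed by −0.73 (SE 0.30, adjusted p = 0.479, limma). *Hlf* differed by −0.13 (SE 0.27, adjusted p = 0.876, limma) on its brighter probe and by 0.14 (SE 0.30, adjusted p = 0.880, limma) on the dimmer one.

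**Figure D3:**
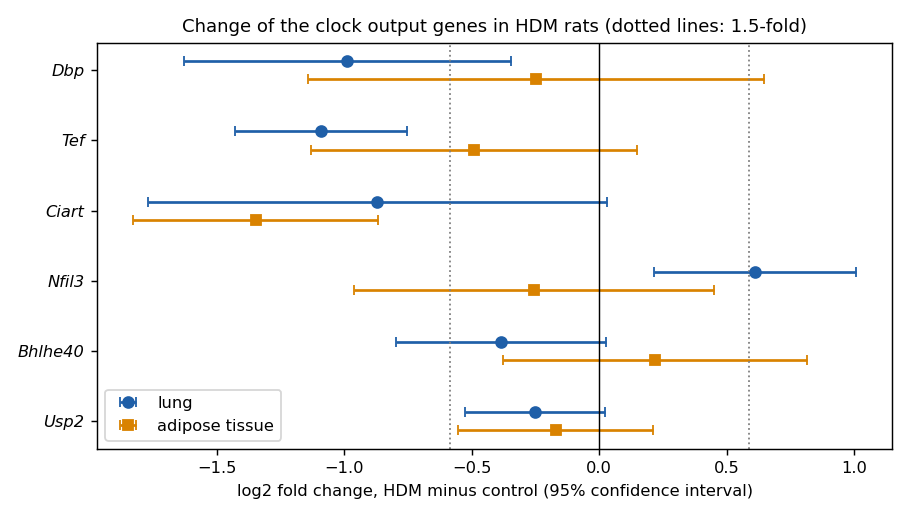
Log2 fold change, HDM minus control (x axis), of 6 clock output genes (y axis) in lung (circles) and adipose tissue (squares) on the brightest probe of each tissue, with 95% confidence intervals from limma. Dotted lines mark 1.5-fold. The lung intervals of *Dbp*, *Tef* and *Nfil3* and the adipose interval of *Ciart* do not cross 0.

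Whether the change in lung differed from that in adipose tissue was tested with limma on each rat's lung value minus its adipose value, on the probe brightest over both tissues. None of the 6 genes passed this test by limma or by the methods' t-test, compared with 0.00219% of all probes, while 2 of the 6, and 7.74% of all probes, had an unadjusted p below 0.05. For *Dbp* the change in lung minus that in adipose tissue was −0.95 (SE 0.30, 95% confidence interval −1.64 to −0.26, adjusted p = 0.527, limma). For *Nfil3* it was 0.87 (SE 0.31, 95% confidence interval 0.15 to 1.58, adjusted p = 0.586, limma). The other 4 genes lay between −0.60 and 0.48, and the median of all probes was 0.15. The intervals for *Dbp* and *Nfil3* reach from a small difference to one of more than 1 log2 unit, so the data do not show that the tissues respond alike.

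Between the tissues of the control rats, 3 of the 6 genes passed the test, compared with 44.3% of all probes, so the count lies near that of all probes. Tissue and slide cannot be told apart, since each tissue had its own slide. *Tef* was 0.95 higher in lung (SE 0.25, 95% confidence interval 0.38 to 1.52, adjusted p = 0.0152, limma), against a median of −0.58 over all probes. *Ciart* (−0.94, adjusted p = 0.0385, limma) and *Usp2* (−0.66, adjusted p = 0.00786, limma) were lower in lung on this scale, but neither passed with arrays scaled to their median or to *Gapdh* and *Hprt1*. *Tef* passed under each of these scalings. Its call was lost without control rat 1 and without control rat 2.

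In control rats *Dbp* was 4.89 ± 0.28 (SD, n = 3) in lung on the probe common to both tissues and 5.45 ± 0.63 (SD, n = 3) in adipose tissue. The difference was −0.56 (95% confidence interval −1.10 to −0.01, adjusted p = 0.0844, limma) and did not pass the test. *Dbp* was lower in lung in 3 of 3 rats, but its difference lay near the median of −0.58 over all probes. It turned to 0.081 with the percentile over probes well above background. *Bhlhe40* (−0.01, adjusted p = 0.987, limma) and *Nfil3* (−0.25, adjusted p = 0.424, limma) did not pass either. In HDM rats the within-rat lung minus adipose values of *Dbp* lay between −1.92 and −1.02, below all those of the control rats (−0.81 to −0.16). Those of *Nfil3* lay between −0.10 and 1.08 in HDM rats and between −0.33 and −0.20 in control rats, also without overlap. The within-rat values of *Tef*, *Ciart*, *Bhlhe40* and *Usp2* overlapped between the groups. The share of all probes without overlap in such values was not counted. The within-rat values are the same as those behind the test of the difference and add no support to it.

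The other genes of the clock and its outputs were taken from lists of 37 genes, 36 of which were measured. In lung, 18 of the 36 had an unadjusted p below 0.05 (limma), compared with 10.2% of all probes. In HDM rats 0 were called higher and 5 were called lower (limma), compared with 0.373% of all probes called lower. The 5 called genes were *Per1* and *Per2*, which encode negative arms of the loop (−2.003, SE 0.32, and −1.36, SE 0.18), the repressor gene *Cry1* (−0.80, SE 0.12), the cell cycle kinase gene *Wee1* (−0.70, SE 0.12) and *Klf9*, which encodes a Krüppel-like factor (−1.25, SE 0.17). Their adjusted p values were between 0.0208 and 0.0469 (limma). The median over the 36 genes was −0.30, beside 0.00 over all probes. None of the 36 was called when HDM rat 1, HDM rat 2 or a single control rat was left out.

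**Figure D4:**
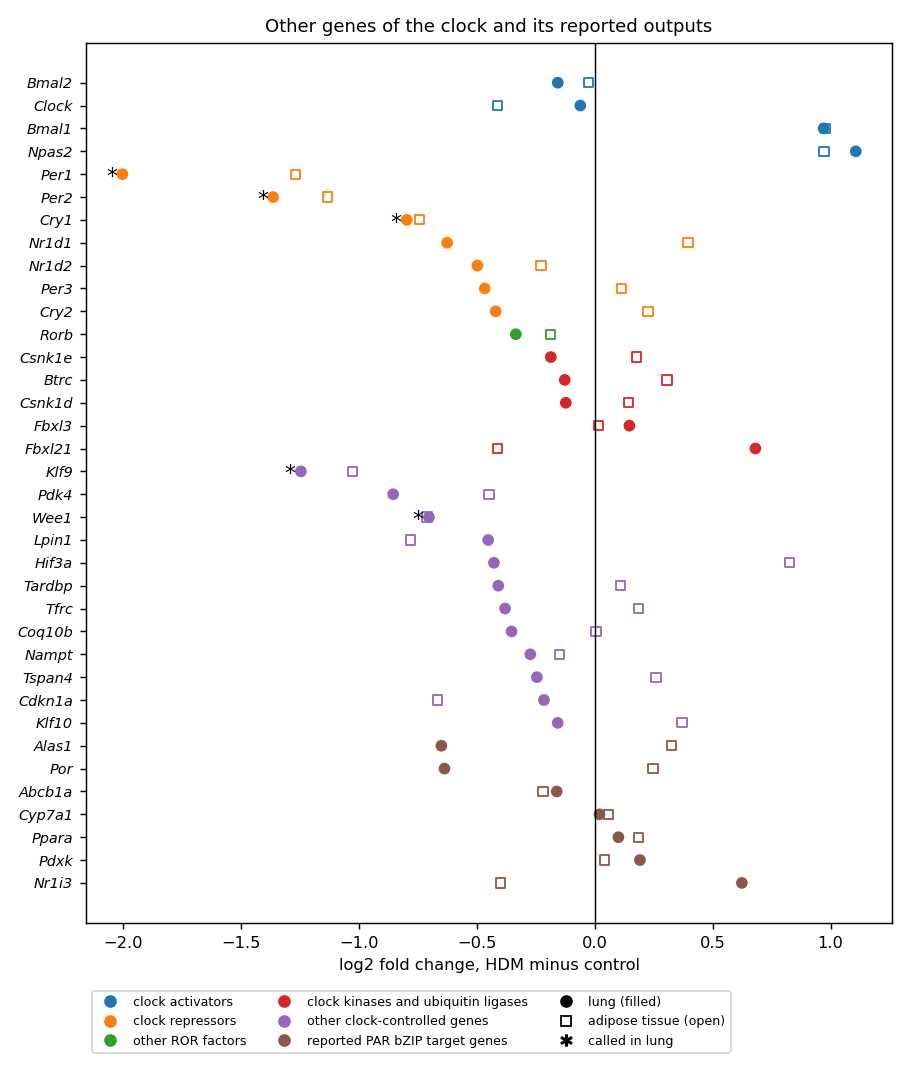
Log2 fold change, HDM minus control (x axis), of 36 other genes of the clock and its reported outputs (y axis) in lung (filled circles) and adipose tissue (open squares), colored by list. Asterisks mark the 5 genes called in lung, all of them lower in HDM rats. *Bmal1* and *Npas2* lie near 1 in both tissues, whereas all 7 repressors lie below 0 in lung.

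Of the 4 activator genes, 0 were called in lung, and *Bmal1* and *Npas2* had the opposite sign to *Dbp* and *Tef*. *Bmal1* was 0.33, 0.16, 0.07, 0.16 and −0.56 in HDM rats 1 to 5 and −0.82, −0.88 and −1.12 in control rats 1 to 3, a difference of 0.97 (SE 0.21, adjusted p = 0.0937, limma). *Npas2* differed by 1.11 (SE 0.19, adjusted p = 0.0504, limma), with HDM rats at −0.85 to −0.16 and control rats at −1.68 to −1.22. In both genes the groups did not overlap, and HDM rat 5, the rat with the highest *Dbp* and *Tef* of its group, had the lowest value of the HDM rats. *Clock* differed by −0.06 (SE 0.13).

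The calls in lung stood in the lists of clock repressors (3 of 7) and of other clock-controlled genes (2 of 12). Among the repressor genes, *Nr1d1*, which encodes REV-ERB alpha, was at −0.63 (SE 0.36, adjusted p = 0.682, limma). None of the 5 genes for clock kinases and ubiquitin ligases was called (limma), and none of 7 reported targets of the PAR bZIP factors. At an unadjusted p below 0.05 (limma) there were 0 and 3 of them, compared with 10.2% of all probes. Among those targets, *Por*, the electron donor of cytochrome P450 enzymes, differed by −0.64 (SE 0.19, adjusted p = 0.249, limma) and *Alas1*, the first enzyme of heme synthesis, by −0.65 (SE 0.16, adjusted p = 0.137, limma). In both, all HDM rats lay below all control rats, as they did for *Tef*. The groups did not overlap in 2 of the 7 targets, compared with 9.61% of the probes measured on all 8 arrays. The median over the 7 targets was 0.02, and *Cyp7a1* and *Abcb1a* were well above background in 0 of 8 lungs.

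In adipose tissue 0 of the 36 genes were called (limma, and 0 by the methods' t-test), and their median was 0.03. At an unadjusted p below 0.05 (limma) there were 8, compared with 9.90% of all probes. *Bmal1* differed by 0.98 (SE 0.21, adjusted p = 0.277, limma), *Npas2* by 0.97 (SE 0.28, adjusted p = 0.369, limma), *Per1* by −1.27 (SE 0.20, adjusted p = 0.213, limma) and *Per2* by −1.13 (SE 0.36, adjusted p = 0.399, limma). In each of these 4 genes the HDM and control rats did not overlap. Over the 36 genes this held for 2 genes higher and 4 lower in HDM rats, compared with 6.26% of all adipose probes in either direction. *Por* and *Alas1* were at 0.25 and 0.32, the latter without HDM rat 2, whose spot was an outlier and was dropped.

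Other genes moved with the group in the same lungs. Of 8 neutrophil genes 6 were called higher, and their summed level was 6.95 to 8.08 in HDM rats and 3.05 to 3.39 in control rats. The summed level of 5 eosinophil genes was 1.12 to 1.99 and −0.09 to 0.48, and 1 of them was called higher. The 8 immediate early genes all had higher means in HDM rats, with a median of 0.77 and 0 called (limma). At an unadjusted p below 0.05 (limma) there were 4 of the 8, compared with 10.2% of all probes. Their summed level was 5.59 to 6.89 in HDM rats and 5.55 to 5.65 in control rats. That of 8 epididymis and testis genes was 0.56 to 1.12 and −0.45 to −0.15, and 1 was called higher. The mean was higher in HDM rats for 5 of these 8 genes, and 3 of them were well above background in no lung. Of 10 glucocorticoid-induced genes 2 were called lower, *Fkbp5* and *Zbtb16*, and the summed level was 5.85 to 6.54 in HDM rats and 7.15 to 7.24 in control rats. In adipose tissue the summed neutrophil level was 1.84 to 3.19 and −0.68 to 0.47, where *Mmp8* and *Ngp* were well above background in 0 of 8 rats, and the glucocorticoid-induced level was 6.21 to 7.25 and 7.00 to 7.30. The part of these genes in the values of *Dbp*, *Tef*, *Nfil3* and *Ciart* was not tested.

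The genes most like *Dbp* and *Nfil3* were sought among 9725 genes well above background on all 16 arrays, by the mean absolute difference between log2 profiles centered within each tissue. For *Dbp* the closest was *Tef* (0.23), and *Tspan11* (0.25), *Klf15* (0.26) and *P4ha2* (0.26) were among the 5 closest. For *Nfil3* the closest were *Narf* (0.18), *Ldlrad4* (0.18), *Dnajc12* (0.19), *Cd300lf* (0.19) and *Smyd5* (0.20). The arrays come in pairs from 8 rats, and the likeness is a description.

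The 75th percentile of the signal was 376 to 488 on the lung arrays and 111 to 240 on the adipose arrays, and 50.5% to 68.8% of the probes were detected well above background. The labels matched the markers of the tissues, since the summed level of 5 lung genes was 10.4 to 10.7 in lung and 0.41 to 1.23 in adipose tissue. That of 5 adipocyte genes was 9.38 to 10.4 in adipose tissue and 0.28 to 3.42 in lung. The number of arrays limits the precision. On simulated data with the spreads of these arrays, limma recovered 35.5% of lung probes changed by 1 log2 unit and 68.0% of those changed by 2, and 0% and 52.5% of the adipose probes.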

How the data were processed

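RNA of 8 rats was measured in lung and adipose tissue on 16 one-color Agilent arrays labeled with Cy3, from 50 ng of RNA per sample. The authors deposited the spot intensity of each array on a linear scale, extracted with Feature Extraction 12.0.3.1, background-subtracted and not normalized between arrays. They also deposited a table of log2 values made in GeneSpring GX 15.5, with the steps not given in the sources used here. Of its cells, 99.97% in lung and 99.85% in adipose tissue lay within 0.1 log2 units of the intensities once these were set relative to each array's 75th percentile and centered within a tissue. The deposited log2 values served as an alternative.

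Control probes and outlier spots were left out, log2 signals were averaged over the spots of one probe, and each array's 75th percentile was taken off. The 8 arrays of a tissue (5 HDM, 3 control, grouped by their labels) were fitted apart from the other tissue in R 4.3.3, by lmFit and eBayes of limma 3.58.1, without a filter on dim probes. Files were read with data.table, version 1.17.8, and jsonlite 2.0.0. Over all 45598 probes, p-values were adjusted after Benjamini and Hochberg, and calls were made at an adjusted p below 0.05 and more than 1.5-fold. These thresholds follow the study's methods, whose unpaired test was run as an alternative on the same values ("the methods' t-test"). Changes were compared between tissues by limma on the lung minus adipose value of each rat. The HDM minus control fits of lung and of adipose tissue were tried on simulated data in which 200 probes were changed.

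Symbols came from RefSeq accessions and a table of 47357 rat genes of GRCr8, which named 21229 probes. Promoter windows are RefSeq's. Figures were drawn with matplotlib 3.10.9 and pandas 2.3.3 in Python 3.11.15. The genes named are all genes of the group, and of each list the called genes or up to 4 with the largest change. One gene that the rule for likeness to *Dbp* names is not reported here. *Clock*, *Cyp7a1*, *Abcb1a*, *Mmp8* and *Ngp* lie outside this rule and were named after their values were seen. The genes of the group and all lists were chosen with earlier results of these data known, and the lung values of *Hlf* and *Bhlhe41* rest on names from the study's lung list. Other normalizations, tests, adjustments, weights, blocks, probe choices and the removal of single rats were tried as alternatives.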

Additional observations from a re-analysis of the deposited data

Results flagged for a closer look

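*Tef* in the adipose tissue of HDM rat 1 was at 2.34, whereas the other 4 HDM rats lay between 2.93 and 3.03. The gap to the nearest of them was 0.849 of the range of the group, above Dixon's critical value for 5 samples. Of 12 groups of HDM rats tested in this way 1 was picked out, and chance alone picks out about 5%. The same sample, with that of control rat 1, carried the epididymis and testis genes (summed level 11.01 and 11.55).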

How the results depend on the processing

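In lung, *Tef* was the one clock output gene called under each normalization, the methods' t-test, array weights and the filter on dim probes. With the p-values adjusted over the probes past 1.5-fold alone, a set picked by the same differences, 1329 probes were called in place of 390. Among them were 3 genes of the group (*Dbp*, *Tef* and *Nfil3*) and 9 genes of the clock lists. With the slide row as a block the difference rests on 1 HDM rat, and *Tef* was at −0.77. Without both rats of number 1, 41 of all probes were called, with 0 clock output genes and 0 genes of the clock lists among them. A joint fit with the rat as a random block called 166 of all probes, with 0 and 2 among them. With each rat left out, the counts in lung were 0 to 1 and 0 to 5, beside 100 to 333 over all probes. In adipose tissue array weights called 338 of all probes, where the main fit called 0. Among them were 1 gene of the group, *Ciart* (adjusted p = 0.0439, limma), and 1 of the clock lists, *Per1*.

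Between the tissues of control rats, 1 gene was called in place of 3 with median scaling, scaling to *Gapdh* and *Hprt1*, the percentile over probes well above background, and without both rats of number 1. A one-sample t-test on the differences of the 3 control rats alone called 0 of all probes, where the main fit called 20183. Its count of 0 therefore says nothing about these genes. With each rat left out the count was 0 to 3.

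Signs turned only for values that had not passed the test. With median scaling the adipose difference was 0.047 for *Dbp*, 0.039 for *Nfil3* and 0.12 for *Usp2*. With the row block it was 0.016 for *Dbp* and −0.017 for *Bhlhe40* in adipose tissue, 0.044 for *Bhlhe40* in lung, and 0.061 for the lung minus adipose change of *Bhlhe40*. That change turned to −0.052 for *Ciart* with quantile normalization. For *Usp2* it turned to 0.0076 with the percentile over bright probes, 0.014 with normexp, 0.25 with the mean over probes and 0.054 without both rats of number 1, and lay between −0.13 and 0.019 with each rat left out. The control difference between tissues of *Bhlhe40* was 0.24, 0.30, 0.63, 0.13 and 0.077 with median scaling, *Gapdh* and *Hprt1*, bright probes, array weights and without both rats of number 1, and −0.24 to 0.14 with each rat left out. For *Nfil3* it was 0.0038, 0.062 and 0.39 with the first 3 of these, and for *Dbp* 0.081 with the third. The cause was not tested.

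Same-numbered samples correlated at −0.06, −0.08 and 0.05 in lung and at 0.59, 0.14 and 0.10 in adipose tissue, so the numbers were not taken as pairs. With the replicate number as a block, 0 of all probes were called in lung, and so 0 clock output genes and 0 clock list genes. *Tef* was at −1.21 there (adjusted p = 0.310, limma). *Ciart* was well above background on 2 of 8 lung arrays and 1 of 8 adipose arrays, which limits its values.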
